A study of Bos taurus with 7 samples.

Results

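The subject is the contrast between a pair of single libraries of cow's milk (Bos taurus), the fraction titled MP 12k and the fraction titled MP 35k, chosen by their titles and making up 2 of the 7 libraries of the series. All 7 libraries carry the same other labels. These are Holstein as the subtype and a pasteurized, homogenized, skimmed and filtered milk sold as food, which was not treated further. The series also holds fractions titled 70k and 100k, 1 library each, and 3 libraries titled milk. The labels spell out neither MP nor k, and nothing in them ties a library to a separate cow or carton. Total RNA was extracted, adapters were ligated to both ends, and RNAs of about 8 to 35 nt were sequenced, of which the reads of 8 to 15 nt were deposited.

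Ribosomal RNA (rRNA) forms the core of ribosomes, and 5.8S, 28S and 5S rRNA lie in the large subunit while 18S rRNA lies in the small one. Transfer RNAs (tRNAs) carry amino acids to the ribosome by a 3' end that is completed to the letters CCA. MicroRNAs guide silencing proteins to messenger RNAs through a short stretch near their 5' end, the seed. Milk contains such RNAs outside cells, partly as whole molecules and partly as fragments, and it can hold RNA of bacteria.

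The reads that carried the results are printed first, as they stand in the deposited tables, with T for U. In both fractions most reads ended at the same base of 5.8S rRNA, close to its 5' end. They differed in where they started or in their first base. In the following 5 forms the capitals mark a stretch of 11 nt that they share with further forms of the family. The g before it is also common to these 5.
12-nt form of the 5.8S end: gACTCTTAGCGG
13-nt form of the 5.8S end: cgACTCTTAGCGG
14-nt form of the 5.8S end: acgACTCTTAGCGG
13-nt variant starting with A: agACTCTTAGCGG
13-nt variant starting with G: ggACTCTTAGCGG
The leading 28S and 18S fragments also came in nested forms, shown because their ratios are compared. Each 14-nt form lies whole within its 15-nt form, and capitals mark the 12 bases also shared with shorter forms.
28S, 15 nt: gcaGGACGGTGGCCA
28S, 14 nt: caGGACGGTGGCCA
18S, 15 nt: cgcAGCTAGGAATAA
18S, 14 nt: gcAGCTAGGAATAA
For tRNA the leading reads were the 3' end of lysine tRNA, the 5' part of glycine tRNA and the inside of cysteine tRNA. The capitals mark the bases shared with other forms of the same tRNA.
lysine tRNA: ACGTTGGGCGCC
glycine tRNA: gcattggtggttcag
cysteine tRNA: tCAAGAGGTCCC
Among microRNAs the seed is in capitals where the read holds it.
let-7: tGAGGTAGtaggttg
miR-183: tATGGCACtggtaga
miR-30: GTAAACAtcctcgac
miR-148, from its 3' part: ctacagaactttgt

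The 12k library held 2309731 reads of 44623 distinct sequences, and the 35k library held 2560280 reads of 57968. They shared 15041 sequences, 33.7% of the 12k list and 25.9% of the 35k list, which held 93.5% of all reads in 12k and 88.6% in 35k. Levels are in RPM, the read count scaled by the library's total of 8 to 15 nt reads. With 1 library a side no test was possible. Each ratio is 12k over 35k with an exact 95% counting interval, and each share of reads has a 95% Wilson interval. PCR copies are not independent molecules, so these intervals cover counting error only. As a yardstick for the spread between libraries, the largest fold between any 2 of the 3 milk libraries is given beside a ratio. It is not a replicate of either fraction.

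The 5.8S end took a larger share of the 12k library. It held 71.6% of 12k (interval 71.5 to 71.7), against 59.9% of 35k (interval 59.8 to 59.9), a ratio of 1.20 (interval 1.19 to 1.20). The largest fold between milk libraries was 1.08, with 69.6% to 75.3% of the reads there, so 12k lay within the milk range and 35k below each milk library. Every other scaling used multiplies all ratios by a number above 1, so the ratio there, 1.69 to 2.12, had to lie higher. The 12-nt form accounted for most of the difference. It stood at 469789 RPM in 12k and at 356756 RPM in 35k, a ratio of 1.32 (interval 1.31 to 1.32), between 377113 and 536757 RPM in milk. The 13-nt form hardly differed, with 199228 RPM in 12k and 200868 RPM in 35k (ratio 0.992, interval 0.988 to 0.996). The 13-nt form was thus present at 0.424 times the 12-nt form in 12k and at 0.563 times in 35k, both inside the milk range of 0.310 to 0.690. The 70k and 100k fractions had 2.00 and 2.85.

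Among the smaller forms, the 14-nt form had 18490 RPM in 12k and 16708 RPM in 35k (ratio 1.11). The variant starting with A had a ratio of 1.31 and the variant starting with G a ratio of 1.28. Both were counted in the 5.8S end, not among the reads with 1 mismatch. In both libraries nearly all reads of the family ended at the last base of the stretch in capitals, 99.5% in 12k and 99.4% in 35k. Reads with 1 mismatch to the 5.8S end had 11113 RPM in 12k and 9577 RPM in 35k (ratio 1.16, interval 1.14 to 1.18), inside the milk spread of 1.95-fold.

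Reads of 12 nt were the one length with a larger share in 12k. They made up 51.6% of 12k and 42.1% of 35k (ratio 1.23, interval 1.22 to 1.23; largest milk fold 1.35). Reads of 13 nt made up 25.2% of 12k and 27.1% of 35k (ratio 0.930). All other lengths had smaller shares in 12k than in 35k. They were 1.42% and 2.07% for 8 nt, 1.67% and 2.30% for 9 nt, 4.58% and 5.57% for 10 nt, and 3.33% and 4.49% for 11 nt. For 15 nt they were 4.36% in 12k and 6.35% in 35k, and reads of 14 nt had 78405 RPM in 12k and 100140 RPM in 35k. The ratios for 8, 11, 14 and 15 nt, 0.685, 0.742, 0.783 and 0.686, lay past the milk folds of 1.29, 1.13, 1.20 and 1.19, while those of the other lengths did not. The calls for 8, 11 and 14 nt were lost without the 5.8S end, at ratios of 0.968, 1.05 and 1.01.

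By first base, G started 58.9% of the reads in 12k and 51.1% in 35k (ratio 1.15, interval 1.15 to 1.16; largest milk fold 1.32). C started 27.8% in 12k and 30.7% in 35k (ratio 0.907). A started 8.63% in 12k and 11.5% in 35k (ratio 0.749), the one base past its milk fold of 1.14, a call lost without the 5.8S end (ratio 0.899, milk fold 1.13). T started 4.63% in 12k and 6.69% in 35k (ratio 0.692, milk fold 1.74). Of the 32 combinations of length and first base, 31 had a smaller share in 12k, with ratios of 0.544 to 0.972, and the exception was 12-nt reads starting with G, at 48.8% of 12k and 37.8% of 35k (ratio 1.29). Without the 5.8S end, 12-nt reads were 15.1% of 12k and 15.4% of 35k (ratio 0.983), and reads starting with G were 39.0% of 12k and 36.8% of 35k (ratio 1.06). C was then the one base past its milk fold of 1.01, with 26.8% of 12k and 25.6% of 35k (ratio 1.05). Of the 4 lengths with a larger share in 12k without that end, 10 nt alone lay past its milk fold of 1.09, with 16.1% of 12k and 13.9% of 35k (ratio 1.16). The 13-nt and 15-nt reads were lower in 12k past their milk folds of 1.03 and 1.02, at ratios of 0.887 and 0.925.

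**Figure D1:**
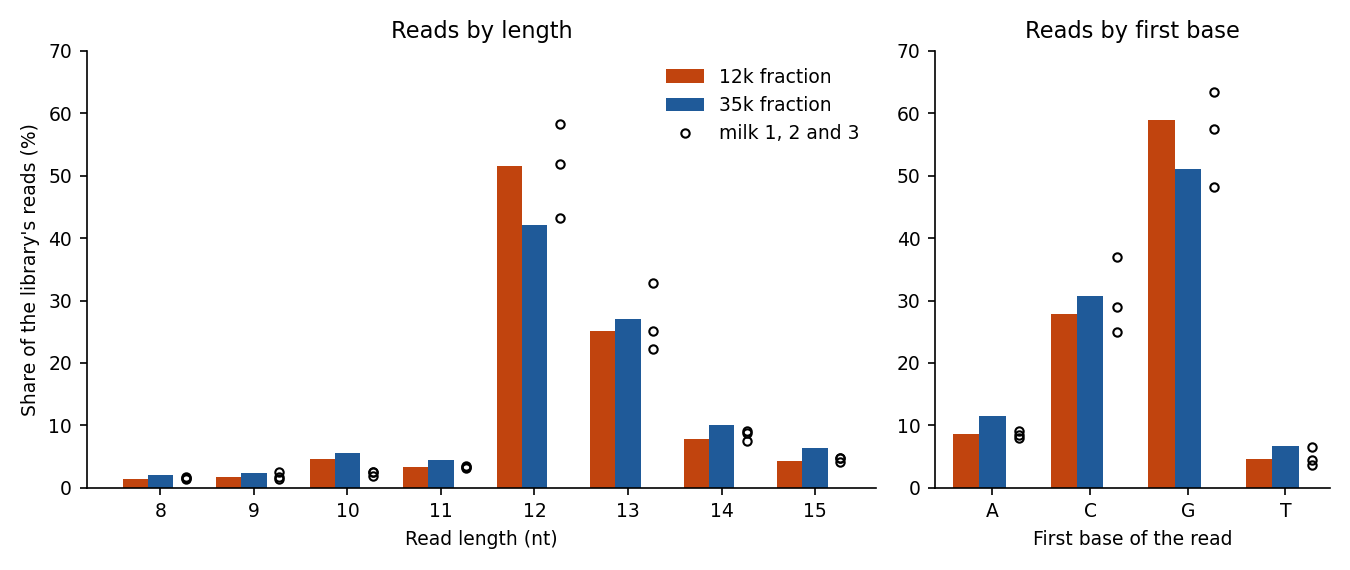
Share of each library's reads (%) by read length in nt (left) and by first base (right). Bars are the 12k fraction and the 35k fraction, 1 library each, and open circles are the 3 milk libraries. Reads of 12 nt made up 51.6% of 12k and 42.1% of 35k. The milk libraries span 43.2% to 58.3%, so 12k lies within their range and 35k just below it.

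A larger share for the 5.8S end leaves a smaller one for everything else, and this bears on all ratios that follow. Counted over the reads outside that end, every ratio is 1.41 times as large, and with TMM factors, a scaling by the bulk of the sequences, it is 1.58 times as large. Of 37 named parent RNAs with at least 50 reads over both libraries, 6 had a ratio above 1 and 31 below 1. Past 2-fold, 0 (0%) were higher in 12k and 10 (27%) lower. Outside the 5.8S end 16 were above 1 and 21 below, with 5 past 2-fold lower. With TMM factors 19 were above 1 and 18 below, with 2 past 2-fold lower. Scaled to the median ratio of single sequences, 23 were above 1 and 14 below, with 2 past 2-fold higher and 1 lower. By library total, the whole interval lay below 1 in 27 of the 37 and above 1 in 3. The ratio lay past the largest milk fold in 11 of the 37. With ratio and milk fold both counted outside the 5.8S end, 8 of the other 36 lay past it, and 6 did so under both counts. These 6 were lysine and valine tRNA, miR-148, miR-30, U2 and the bacterial-type 16S rRNA. In 12k 22 of them lay below each milk library, 11 within the milk range and 4 above it, and in 35k 11 lay below, 18 within and 8 above.

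**Figure D2:**
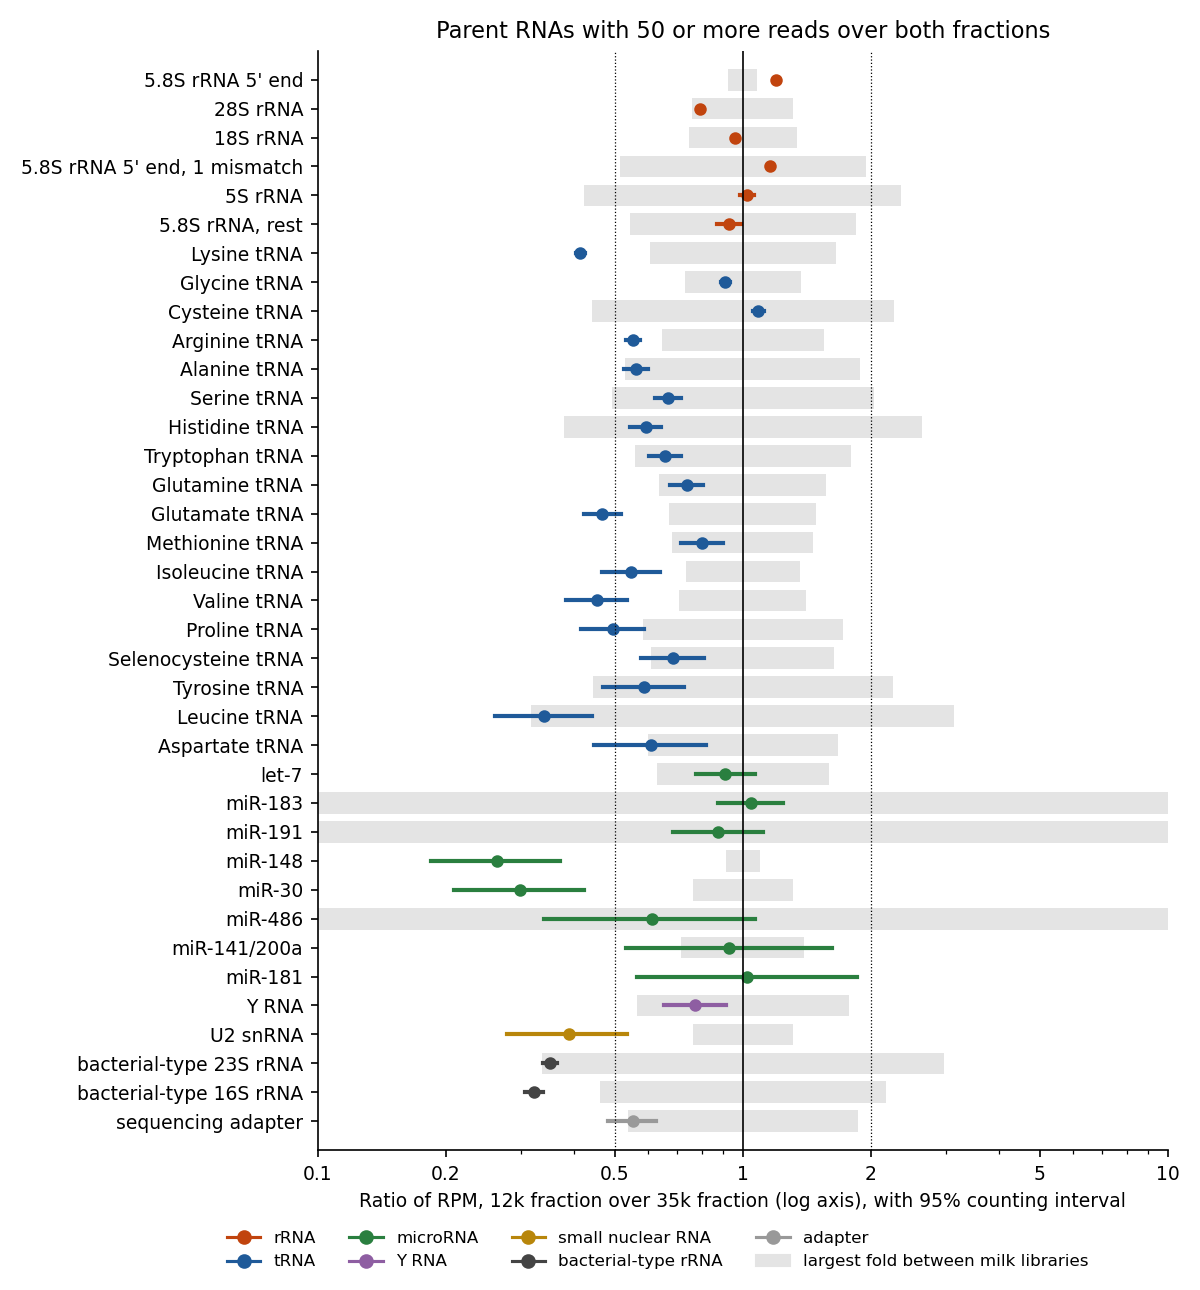
Ratio of RPM, 12k over 35k (log axis), for the 37 parent RNAs with at least 50 reads over both fractions. Points are the ratios, lines their 95% counting intervals, and grey bands span the largest fold between milk libraries in either direction (none is drawn for miR-181, which was at 0 in 1 milk library, and those of miR-183, miR-191 and miR-486 run past the axis). Dotted lines mark 2-fold. Lysine tRNA at 0.414, miR-148 at 0.265 and miR-30 at 0.300 lie outside their bands, and 28S rRNA at 0.793 lies inside its own.

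The other rRNAs were at similar levels. Fragments of 28S rRNA had 43364 RPM in 12k and 54670 RPM in 35k (ratio 0.793, interval 0.787 to 0.800), and 18S rRNA had 16247 RPM in 12k and 16950 RPM in 35k (ratio 0.958). 5S rRNA had 2192 RPM in 12k and 2137 RPM in 35k (ratio 1.03, interval 0.987 to 1.07), below the 2427 to 5734 RPM of milk in both. The 28S and 18S ratios turn above 1, to 1.12 and 1.35, when counted outside the 5.8S end. By library total all 3 lay inside the milk folds of 1.32, 1.34 and 2.36, and outside the 5.8S end the 28S ratio lay past its milk fold of 1.07, on the higher side. Within the 28S fragment, the 15-nt form stood at 0.173 times the 14-nt form in 12k and 0.187 times in 35k, against 0.175 to 0.207 in milk. Within the 18S fragment the 15-nt form stood at 0.823 times the 14-nt form in 12k and 0.725 times in 35k, against 0.707 to 0.827 in milk. The proportions of nested forms thus differed less between 12k and 35k than across the milk libraries. A further 28S read was abundant in both fractions and rare in milk, and it shows what the pair had in common.
28S, second fragment: ctggacgaggcgcc
It had 1621 RPM in 12k and 2066 RPM in 35k (ratio 0.785), against 33.2 to 39.8 RPM in milk, 39.1 RPM in 70k and 6.71 RPM in 100k.

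Fragments of tRNA made up 1.73% of 12k (interval 1.72 to 1.75) and 2.65% of 35k (interval 2.63 to 2.67), a ratio of 0.654 (interval 0.645 to 0.662). The milk libraries held 2.11% to 3.39%, so 12k lay below each of them and 35k within, while the ratio stayed inside the milk fold of 1.60. Of 18 kinds of tRNA, 17 were lower in 12k, with intervals below 1, and 5 of them at least 2-fold, a share near the 27% of all 37 parents. Counted outside the 5.8S end the class ratio is 0.923 with 14 of 18 below 1, with TMM factors it turns to 1.03 with 11 of 18 below 1, and scaled to the median ratio to 1.16 with 8 of 18.

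Lysine tRNA stood out by its abundance. It had 3880 RPM in 12k and 9360 RPM in 35k, a ratio of 0.414 (interval 0.405 to 0.425), against 7901, 13063 and 10697 RPM in milk. The 12k library thus lay below each milk library and 35k inside their range. The ratio lay past the milk fold of 1.65 and stayed below 1 under each scaling. Outside the 5.8S end it was 0.585, a fold of 1.71 only just past the milk fold of 1.68 counted the same way. Its leading read, printed above, had 2523 RPM in 12k and 6084 RPM in 35k (ratio 0.415). Forms longer by 1 base differed alike, with ratios of 0.409, 0.422 and 0.387, as did the 5' part of the same tRNA, with 491 RPM in 12k and 1051 RPM in 35k (ratio 0.468).

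The other tRNAs past their milk folds were those of arginine, glutamate, isoleucine, valine and proline. Arginine tRNA had 1699 RPM in 12k and 3078 RPM in 35k (ratio 0.552, interval 0.531 to 0.574). Glutamate tRNA had 245 RPM in 12k and 525 RPM in 35k (ratio 0.467). Isoleucine, valine and proline tRNA had ratios of 0.546, 0.453 and 0.495. All 5 stayed below 1 under the other scalings. Outside the 5.8S end valine tRNA alone of the 5 stayed past its milk fold (ratio 0.640), while arginine, glutamate, isoleucine and proline tRNA, at 0.780, 0.660, 0.772 and 0.699, lay inside theirs. Leucine tRNA had the lowest ratio, 0.341 (interval 0.261 to 0.442), from 77 reads in 12k and 250 in 35k, with a milk fold of 3.15. Glycine and cysteine tRNA differed little. Glycine tRNA had 4980 RPM in 12k and 5475 RPM in 35k (ratio 0.910, or 1.28 outside the 5.8S end). Cysteine tRNA had 3543 RPM in 12k and 3256 RPM in 35k (ratio 1.09, interval 1.06 to 1.12), the only tRNA above 1 when scaled by the library total. The remaining 9 kinds had ratios of 0.560 for alanine tRNA to 0.803 for methionine tRNA.

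The ratio differed by the part of the tRNA, a difference that was not tested. Reads from 3' ends made up 0.493% of 12k and 1.14% of 35k, a ratio of 0.432 (interval 0.423 to 0.441) past the milk fold of 1.62. This ratio stayed below 1 under each scaling, but outside the 5.8S end it was 0.610, a fold of 1.64 inside the milk fold of 1.66. Reads from 5' parts made up 0.732% of 12k and 0.956% of 35k (ratio 0.765, milk fold 1.54). Reads from inside the tRNA made up 0.507% of 12k and 0.551% of 35k (ratio 0.919, milk fold 1.69). The last 2 turn above 1, to 1.08 and 1.30, outside the 5.8S end. Lysine tRNA alone gave 3388 of the 4934 RPM from 3' ends in 12k and 8309 of the 11426 RPM in 35k. In arginine tRNA, 3' reads had a ratio of 0.385 and inside reads 0.668. In glutamate tRNA, 3' reads had a ratio of 0.249 and 5' reads 0.594. Tryptophan tRNA went the other way, with 0.735 for 3' reads and 0.0534 for inside reads, which numbered 8 in 12k and 166 in 35k. Reads that ended in CCA made up 0.0869% of 12k and 0.157% of 35k (ratio 0.555), past their milk fold of 1.52, though outside the 5.8S end the ratio of 0.784 lay inside a milk fold of 1.55.

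**Figure D3:**
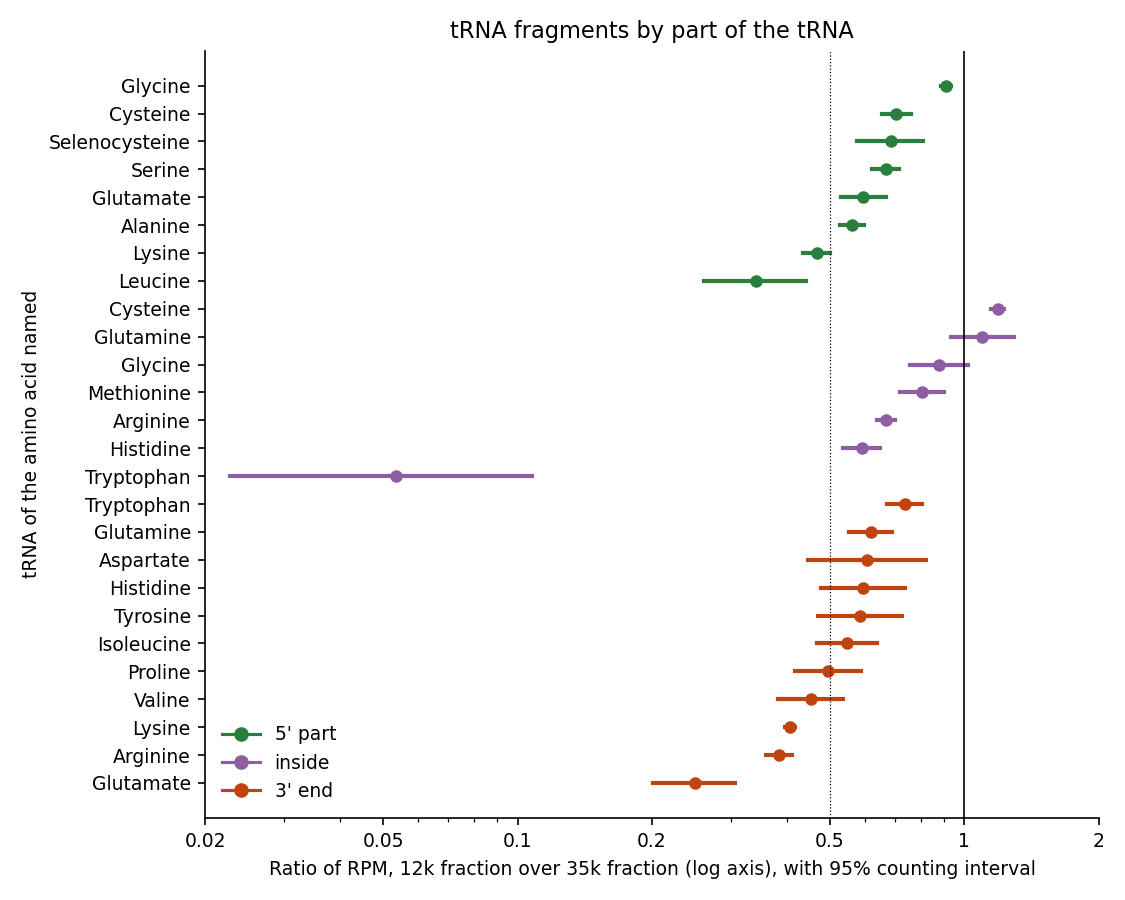
Ratio of RPM, 12k over 35k (log axis), of tRNA fragments by the part of the tRNA they come from, for each amino acid and part with at least 50 reads over both fractions. Points are ratios and lines are 95% counting intervals. The 3' ends lie between 0.249 for glutamate and 0.735 for tryptophan, all left of 1, and the inside reads of cysteine tRNA lie at 1.19.

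MicroRNA fragments were scarce, with 408 RPM in 12k and 532 RPM in 35k (ratio 0.767, interval 0.705 to 0.834; 1.08 outside the 5.8S end), inside the milk fold of 2.34. Of 8 families with at least 50 reads, 2 had intervals below 1 and none above, against 27 below and 3 above among all 37 parents. These were miR-148 and miR-30, both abundant in mammary epithelium. The miR-148 family had 42 reads or 18.2 RPM in 12k, against 176 reads or 68.7 RPM in 35k. Its ratio was 0.265 (interval 0.184 to 0.372), past a milk fold of only 1.10, with 69.7 to 76.3 RPM in milk. The 35k level was thus just below milk and the 12k level well below it. The miR-30 family had 43 reads or 18.6 RPM in 12k and 159 reads or 62.1 RPM in 35k (ratio 0.300, interval 0.209 to 0.422, milk fold 1.31). Milk held at most 35.4 RPM, and 12k lay below each milk library and 35k above. Both families stayed below 1 under each scaling, and outside the 5.8S end both lay past their milk folds of 1.32 and 1.58, at 0.374 and 0.423.

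Scaled by the library total, the other families with at least 50 reads did not differ beyond counting error. Outside the 5.8S end let-7 had a ratio of 1.29, miR-183 of 1.47 and miR-191 of 1.24. Broadly expressed let-7 had 125 RPM in 12k and 137 RPM in 35k (ratio 0.910, interval 0.776 to 1.07). Epithelial miR-183 had 111 RPM in 12k and 106 RPM in 35k (ratio 1.04, interval 0.876 to 1.24), while its milk values spanned 10.8-fold. miR-191 had a ratio of 0.875 (interval 0.686 to 1.12). miR-486 of red blood cells, miR-141/200a of epithelium and miR-181 had 50 to 59 reads over both libraries and intervals that include 1. Outside the 5.8S end miR-141/200a had a ratio of 1.31, past its milk fold of 1.27 on the higher side, from 26 reads in 12k and 31 in 35k. Of the rarer families, miR-186 had 3 reads in 12k and 37 in 35k (ratio 0.0899, interval 0.0177 to 0.284, milk fold 2.96), and miR-25 had 13 in 12k and 35 in 35k (ratio 0.412, interval reaching up to 0.798, milk fold 22.1). miR-21 had 0 reads in 12k and 10 in 35k, 3.01-fold lower against a floor of 3 reads in 12k (interval of the ratio reaching up to 0.495). In the other direction miR-26 had 19 reads in 12k and 1 in 35k (ratio 21.1, interval 3.35 to 875, milk fold 19.4), and miR-27 had 20 in 12k and 5 in 35k (ratio 4.43, interval 1.61 to 15.1), far inside its milk fold of 66.2. miR-146 and miR-378 had ratios of 3.60 (interval 1.11 to 15.2) and 4.06 (interval 1.07 to 22.7), inside milk folds of 17.2 and 18.6.

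Summed by source, the mammary epithelial list of 9 families had 402 reads in 12k and 651 in 35k (ratio 0.684, interval 0.603 to 0.776; 0.967 outside the 5.8S end and 1.08 with TMM factors). Its families went both ways, with miR-148 and miR-30 lower and miR-26 higher in 12k. The broad list of 6 families had 445 reads in 12k and 591 in 35k (ratio 0.835, interval 0.736 to 0.946; 1.18 outside the 5.8S end). The erythrocyte list of 2 families had 21 reads in 12k and 43 in 35k (ratio 0.541, interval 0.305 to 0.932). The leukocyte list of 3 families had 16 reads in 12k and 6 in 35k (ratio 2.96, interval 1.10 to 9.22), with 0 reads of miR-142 in either. All 4 lay inside their milk folds, which were 2.30, 1.98, 17.9 and 3.86.

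Y RNAs, which bind the Ro60 protein, had 105 RPM in 12k and 136 RPM in 35k (ratio 0.773, interval 0.653 to 0.914; 1.09 outside the 5.8S end), inside the milk fold of 1.77. Fragments of U2, a small nuclear RNA of the spliceosome, had 53 reads in 12k and 151 in 35k (ratio 0.389, interval 0.279 to 0.535), past the milk fold of 1.31. U1, its partner at the start of splicing, had 0 reads in 12k and 33 in 35k. It was 9.92-fold lower in 12k against the floor of 3 reads, with the interval of the ratio reaching up to 0.131. U1 was at 0 in all 3 milk libraries as well.

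Bacterial-type rRNA was also lower in 12k. Segments of this kind, which are not printed, had 2499 RPM in 12k and 7348 RPM in 35k. The ratio was 0.340 (interval 0.330 to 0.350), past the milk fold of 2.70, and stayed below 1 under each scaling. Outside the 5.8S end it was 0.480, a fold of 2.08 inside the milk fold of 2.23. The 23S type had 1538 RPM in 12k and 4371 RPM in 35k (ratio 0.352), against 625 to 1856 RPM in milk, a ratio inside the milk fold of 2.97. The 16S type had 961 RPM in 12k and 2978 RPM in 35k (ratio 0.323), against 326 to 708 RPM in milk, a ratio past the milk fold of 2.17, and past the 1.80 outside the 5.8S end, where the ratio was 0.456. The 70k and 100k libraries held 1477 and 1105 RPM of the 23S type and 965 and 731 RPM of the 16S type. The 35k library thus stood above the other 6 in both types, and 12k lay near 70k. The difference was spread over many sequences, though the segments were recognised with ratios in view. The class had 5771 reads in 12k and 18814 in 35k, so the read minimum was met mostly through 35k. The counts below thus describe the chosen segments and test nothing. Of 115 with at least 50 reads, 81 were at least 2-fold lower in 12k and 6 at least 2-fold higher, with a median ratio of 0.269. Over all 2918 sequences with that many reads 46.1% were lower and 7.81% higher, with a median of 0.565. The leading sequence held 4.42% of the class in 12k and 7.01% in 35k. Reads matching a sequencing adapter had 151 RPM in 12k and 274 RPM in 35k (ratio 0.550), just inside the milk fold of 1.87.

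**Figure D4:**
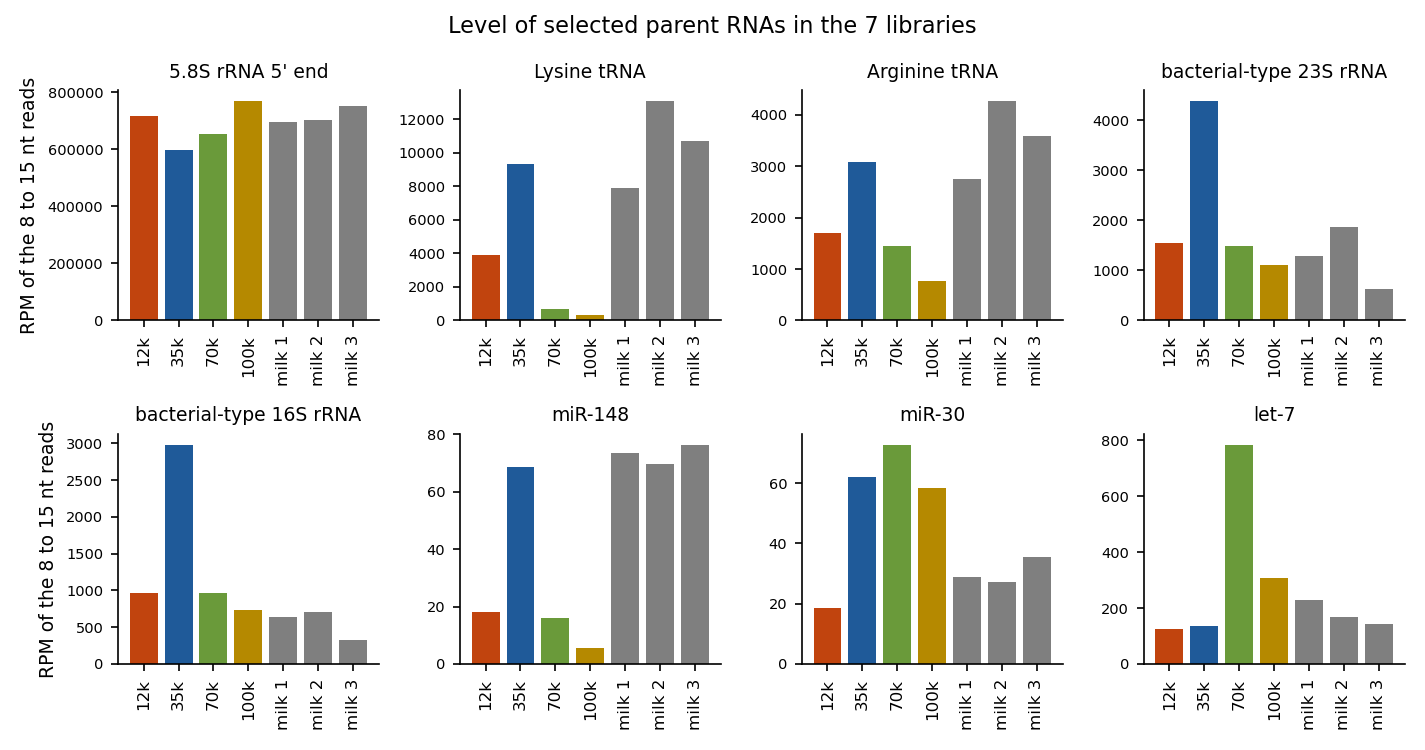
Level in RPM of 8 parent RNAs in each of the 7 libraries, in the order 12k, 35k, 70k, 100k and milk 1 to 3, 1 bar a library, each panel with its own axis from 0. Bacterial-type rRNA is highest in 35k, at 4371 RPM for 23S and 2978 RPM for 16S. Lysine tRNA and miR-148 are lower in 12k than in 35k and in each milk library.

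Reads of at least 12 nt that matched no named RNA made up 7.98% of 12k and 13.8% of 35k (ratio 0.579, past the milk fold of 1.45; 0.818 outside the 5.8S end, though 1.02 when scaled to the median ratio). Reads under 12 nt, too short to be assigned, had 109973 RPM in 12k and 144254 RPM in 35k (ratio 0.762, just past the milk fold of 1.30; 1.08 outside the 5.8S end). The leading short reads, 2 sequences of 10 nt, were at similar levels in the pair. The first had 13762 RPM in 12k, against 13219 in 35k (ratio 1.04), and the second 12455 RPM in 12k, against 12202 in 35k (ratio 1.02), with at most 966 RPM in any milk library.

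Sequence by sequence, 2918 had at least 50 reads over both libraries, and they held 91.0% of all reads in 12k and 85.6% in 35k. Of these, 228 (7.81%) were at least 2-fold higher in 12k, 1346 (46.1%) were at least 2-fold lower, and 1344 lay between. The median ratio was 0.565. Scaling decided much of this split. With TMM factors 503 were higher and 955 lower with a median of 0.891, and with scaling to the median ratio 620 were higher and 872 lower. Counting only sequences whose whole interval lay past 2-fold left 109 higher and 950 lower.

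By the share past 2-fold and by Spearman's rho, the pair differed about as much as the milk libraries differ among themselves. In the pair 53.9% of sequences lay past 2-fold in either direction, and between milk libraries 57.4% to 60.6% did under the same rule. Spearman's rho across sequences was 0.356 for the pair and 0.242 to 0.335 for milk, a description across sequences of shared libraries. Farther out, the bin of log2 ratio from -4.5 to -4 held 5.48% of the pair's sequences and 0.0645% to 2.76% for milk. On the higher side the bin from 4.5 to 5 held 0.343% for the pair and 0.139% to 4.94% for milk. The order within a milk pair is arbitrary, so neither bin shows whether the pair or milk spread wider. Sequences with a count of 0, 260 in 12k and 25 in 35k, have a log2 ratio only through the floor of 3 reads. Their place among the outer bins thus depends on that floor. By parent RNA, 11 of 37 ratios lay past the largest milk fold. Among sequences with at least 1000 reads the share past 2-fold was 22.6% for the pair and 6.37% to 37.3% for milk. The share also depended on abundance. Of 1604 sequences with 50 to under 100 reads, 53.8% were at least 2-fold lower in 12k. Of 1199 with at least 100 and under 1000 reads 38.1% were, of the next 95 by abundance 25.3%, and of the 20 most abundant 2 sequences.

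**Figure D5:**
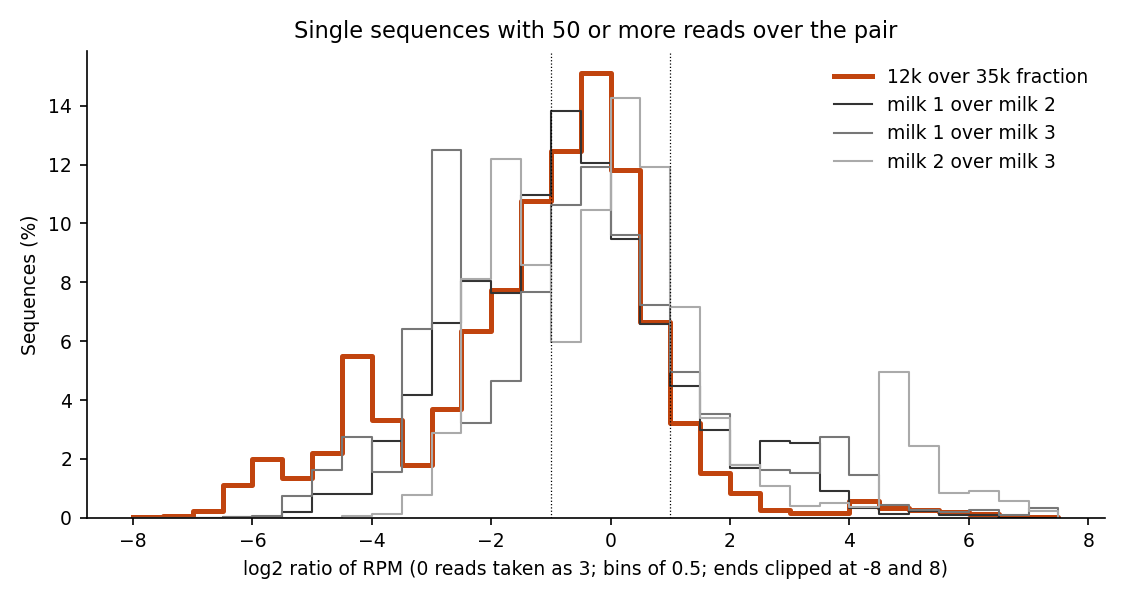
Distribution of the log2 ratio of RPM over single sequences with at least 50 reads over the pair, in bins of 0.5, as a percentage of sequences. The thick line is 12k over 35k, and the thin lines are the 3 pairs of milk libraries. Dotted lines mark 2-fold. The 12k over 35k line overlaps the milk lines and lies mostly left of 0, with a median ratio of 0.565. It reaches farther left than they do, while milk 1 over milk 3 reaches farther right than it does. The order within a milk pair is arbitrary, so these sides do not show which spread is wider.

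Among the classes with over 100 sequences, rRNA had the highest median ratio and bacterial-type rRNA the lowest, and both were recognised with ratios in view. Of 390 rRNA sequences 31 (7.95%) were at least 2-fold higher in 12k and 91 (23.3%) lower, with a median ratio of 0.918, against the background of 7.81% and 46.1%. Of 177 tRNA sequences 11 were higher and 83 (46.9%) lower, a share near the background. Of 1067 unmatched sequences of at least 12 nt 80 were higher and 581 (54.5%) lower. By first base the share lower ran from 44.2% for G to 49.1% for C, and by length from 36.7% for 8 nt to 53.5% for 15 nt. Of the 115 sequences with at least 1000 reads, 26 (22.6%) were at least 2-fold lower in 12k. These were 8 of 12 tRNA sequences, 4 of the 8 from lysine tRNA, 2 of 2 of bacterial type, 2 of 44 from animal rRNA, 5 of 18 unmatched and 9 of 39 too short. By library total no sequence with at least 1000 reads was 2-fold higher in 12k. Scaling to the median ratio multiplies every ratio by 1.77, which takes the 12-nt form of the 5.8S end, at 1.32, past 2-fold.

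The 8 sequences farthest from 1 by their counting interval in each direction matched no named RNA or were too short, and are not printed. Those higher in 12k had 9 to 15 nt, 75 to 134 reads in 12k and at most 1 read in 35k. The 7 of them at 0 in 35k were 27.7-fold to 42.5-fold higher in 12k against the floor, with lower interval ends of 22.0 to 34.0. In each milk library 7 of the 8 stayed below 3 RPM. Those lower in 12k had 11 to 15 nt, at most 2 reads in 12k and 128 to 310 reads in 35k. The 5 of them at 0 in 12k were 38.5-fold to 48.7-fold lower against the floor, with the intervals of the ratio reaching up to 0.0255 to 0.0324. Their highest milk level was 25.9 RPM among those higher and 25.1 RPM among those lower in 12k.

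Among sequences with a named parent, chosen after their values were seen, some nested forms fell on opposite sides. The following 18S reads, shown for that reason, are the same but for 1 base more at the start of the first.
18S, higher in 12k: gaagacggtcgaact
18S, lower in 12k: aagacggtcgaact
The first had 71 reads in 12k and 0 in 35k, and the second had 0 in 12k and 68 in 35k. A form of the second 28S fragment longer by 1 base, whose shorter form had a ratio of 0.785 and was thus not past 2-fold, had 74 reads in 12k and 0 in 35k.
28S, second fragment, longer by 1 base: ctggacgaggcgccg
Splits to opposite sides were not frequent. Of 1645 nested pairs that differ by 1 base at an end, 56 (3.40%) had one member at least 2-fold higher and the other at least 2-fold lower in 12k, and 378 had both past 2-fold on the same side. Between milk libraries the opposite share was 2.94% to 7.94%.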

How the data were processed

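Total RNA of 7 libraries was sequenced for fragments of about 8 to 35 nt, and the authors deposited a read count for each distinct sequence of 8 to 15 nt. The RPM values deposited beside it equalled the read count scaled by the file total to within 0.0005 RPM. Each file's closing total line was left out. The sources used here name no trimming step, filter, aligner or genome build. Totals, 1658606 to 4572650 reads, cover this length window alone, so whole-library depth is unknown, and a count of 0 allowed 3 reads, 1.30 RPM in 12k and 1.17 RPM in 35k.

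Ratios of RPM, 12k over 35k, had exact conditional binomial intervals (scipy 1.17.1, Python 3.11.15), tested on simulated data. No genome or RNA sequence was used. Parent RNAs were defined by 230 deposited reads that were recognised, from general knowledge of vertebrate and bacterial RNAs, among the abundant sequences of these libraries with ratios in view. A read of at least 12 nt belonged to a parent when it shared an exact run of 11 nt with it. Names were not checked against a bovine genome, conserved RNAs cannot be told apart between vertebrates, and bacterial-type segments can match organelle rRNA. Matching reads backwards, as a measure of chance, gave 164 RPM in 12k and 324 RPM in 35k for rRNA, 32.9 and 15.2 RPM for tRNA, 12.6 and 35.9 RPM for bacterial-type rRNA, and at most 7.81 RPM for other classes. The named sequences were the 10 most abundant, 8 in each direction by the interval end nearest 1, and leading reads of each parent. Members and lists were chosen with earlier results of these data known. Alternatives were other read minimums, scalings (TMM with edgeR 4.0.16, R 4.3.3), thinning, match lengths and distinct sequences.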

Additional observations from a re-analysis of the deposited data

How the results depend on the processing

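Scaling and the read minimum moved the counts of sequences past 2-fold. The count higher in 12k, 228, became 8166 with a minimum of 10 reads, 15 with 200 reads, 457 without the 10 most abundant sequences in the total, 620 with the median ratio, 503 with TMM factors, 109 with whole intervals and 421 outside the 5.8S end, a scaling added after the data were seen, as was the recount of milk folds on it. The count lower, 1346, became 14456 with 10 reads, 191 with 200 reads and 872 with the median ratio. The ratio of 12-nt reads, 1.23, became 0.975 over distinct sequences, 1.07 without the 10 most abundant sequences, 1.18 with sequences of at least 50 reads and 0.983 without the 5.8S end. That of first base G, 1.15, became 1.03, 1.03, 1.12 and 1.06 in the same order. The ratio of the 5.8S end, 1.20, became 1.08 with reads of at least 14 nt, 1.78 with the total without the 10 most abundant sequences, 1.89 with TMM factors, 1.40 over distinct sequences and 1.69 with the total outside it. Lysine tRNA, 0.414, became 0.615, 0.654, 0.977 and 0.585 under the last 4 of these. The 23S type became 0.436 with 14 nt, then 0.522, 0.555, 0.851 and 0.497, and the 16S type 0.295, then 0.479, 0.509, 0.840 and 0.456. Over distinct sequences 23 of 49 ratios by parent, length and first base kept their side of 1. Among those that turned were valine tRNA at 1.30, U2 at 2.60, miR-30 at 1.30 and histidine tRNA at 1.73. The causes of these changes were not tested, other than that the scalings multiply every ratio by 1 number. Of 37 parent ratios, the side of 1 was kept by 37 with reads of at least 10 nt, 36 with ambiguous reads shared, 27 outside the 5.8S end, 26 without the 10 most abundant sequences in the total and 24 with TMM factors. No paired analysis was possible because each fraction is 1 library. Depth limits the rare microRNAs, where single reads set the value.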
